A study of Homo sapiens with 6 samples.

Results

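The genes described here are 10 members of the BCL2 family, picked by gene name from the 55401 genes listed for each library: the survival genes MCL1, BCL2, BCL2L1, BCL2L2 and BCL2A1, the pore-forming effectors BAX, BAK1 and BOK, and the divergent relatives BCL2L12 and BCL2L13. All 10 names were found, and 9 of them averaged at least 1 TPM in some group, the level required for testing; BCL2A1 did not. RNA sequencing covered 6 libraries of RMS13, an established human cell line of alveolar rhabdomyosarcoma, and of RMS13-R, its derivative that had become resistant to the HSP70 inhibitor MAL3-101. HSP70 proteins are chaperones that help other proteins fold, and DMSO served as vehicle. The 3 groups, each of 2 libraries named A and B, were RMS13-R cells with 10 µM MAL3-101, RMS13 cells with 10 µM MAL3-101, and RMS13 cells with DMSO; every treatment lasted 9 h, in RPMI medium with serum.

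RMS13-R cells in DMSO were not analysed here, so what sets the resistant line apart at rest and how it responds to the inhibitor cannot be told apart. The labels name 1 resistant line, and they leave unstated whether libraries A and B came from separate cultures; the p-values reflect library-to-library spread, which may be technical. Levels are in TPM, a unit that scales for transcript length and library total and keeps no read depth; the counting error of a value is therefore unknown. In bulk RNA, fewer cells of a type and less RNA per cell cannot be told apart.

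Proteins of the BCL2 family decide at the mitochondrial outer membrane whether a stressed cell dies. BAX and BAK, once activated, form pores there that release cytochrome c and switch on caspases. The survival proteins hold BAX, BAK and the BH3-only death proteins in check, and BH3-only proteins free the effectors by occupying the survival proteins' groove. MCL1 protein is short-lived, so its level follows its own synthesis closely, and transcripts of MCL1 and BCL2L1 can each be spliced to a long survival form or a short death-promoting form, which a level per gene does not separate.

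The libraries matched their labelled tissue. Muscle factors typical of rhabdomyosarcoma were high in every library, MYOD1 between 484 and 816 TPM and MYOG between 320 and 688 TPM. DES stood between 318 and 479 TPM and CDH15 between 336 and 407 TPM, and MYF5 was listed at 0 in every library. A further muscle marker, CHRNA1, was lower in RMS13-R (52.1 and 49.9 TPM) than in RMS13 with MAL3-101 (315 and 312 TPM) or DMSO (285 and 337 TPM). MYOD1 was lowest in RMS13-R (486 and 484 TPM), where MYOG (669 and 688 TPM) and DES (479 and 471 TPM) were highest. None of the 5 blood markers or 3 endothelial markers reached 1 TPM in any library. The 5 epithelial markers summed to 19.8 and 18.3 TPM in RMS13-R with MAL3-101, to 54.8 and 54.1 TPM in RMS13 with MAL3-101, and to 24.9 and 30.3 TPM with DMSO, with 1, 4 and 4 of them at 1 TPM or more. The 5 fibroblast markers summed to 137 and 138 TPM in RMS13-R, of which COL3A1 was 134 and 135 TPM, to 39.0 and 39.7 TPM in RMS13 with MAL3-101, and to 42.2 and 46.5 TPM with DMSO. Mitochondrial ribosomal RNA took 0.767% to 0.784% of TPM in RMS13-R, 1.92% to 1.97% in RMS13 with MAL3-101 and 0.533% to 0.565% with DMSO. The epithelial sum and this share were highest in the RMS13 libraries with MAL3-101, as MCL1 was. The fibroblast sum, nearly all COL3A1, was highest in RMS13-R, as BCL2L13 was. The part of these sums and this share in the MCL1 and BCL2L13 results was not tested.

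Promoter sequences of 4 members are given because these genes differed between the lines, BCL2L1, BAX and BAK1 being lower in RMS13-R with MAL3-101 than in RMS13 with MAL3-101, and BCL2L13 higher. Where several starts are listed, as for BCL2L1 and BCL2L13, the window with the most GC boxes is shown. Each is a 300-base window around a transcription start listed by RefSeq on GRCh38.p14, most of it upstream, and runs 5′ to 3′ on the gene's own strand. The BCL2L1 stretch is chr20:31722819-31723118 on the minus strand, the second of 2 starts, the BAX stretch is chr19:48954625-48954924 on the plus strand, the BAK1 stretch is chr6:33580227-33580526 on the minus strand, and the BCL2L13 stretch is chr22:17638507-17638806 on the plus strand, the second of 3 starts listed for that gene. Capitals mark GC boxes (GGGCGG) and heat shock elements (GAANNTTC), matched on both strands, so that CCGCCC is a GC box read from the other strand.
BCL2L1: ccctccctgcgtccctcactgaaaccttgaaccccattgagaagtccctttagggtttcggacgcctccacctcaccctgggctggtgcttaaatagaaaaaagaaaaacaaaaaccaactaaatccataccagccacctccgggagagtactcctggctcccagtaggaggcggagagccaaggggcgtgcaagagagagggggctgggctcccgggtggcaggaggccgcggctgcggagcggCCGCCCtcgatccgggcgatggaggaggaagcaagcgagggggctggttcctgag
BAX: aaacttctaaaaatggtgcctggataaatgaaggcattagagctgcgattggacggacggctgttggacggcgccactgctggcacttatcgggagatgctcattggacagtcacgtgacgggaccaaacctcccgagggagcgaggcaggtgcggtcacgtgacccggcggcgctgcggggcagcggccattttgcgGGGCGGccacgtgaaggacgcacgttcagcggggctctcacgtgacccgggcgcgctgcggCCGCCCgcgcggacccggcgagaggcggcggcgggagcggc
BAK1: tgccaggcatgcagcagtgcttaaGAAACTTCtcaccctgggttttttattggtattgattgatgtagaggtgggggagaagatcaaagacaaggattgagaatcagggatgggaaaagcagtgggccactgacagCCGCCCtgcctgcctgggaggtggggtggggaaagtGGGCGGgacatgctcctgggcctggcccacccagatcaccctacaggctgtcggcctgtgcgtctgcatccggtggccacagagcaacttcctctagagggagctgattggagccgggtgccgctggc
BCL2L13: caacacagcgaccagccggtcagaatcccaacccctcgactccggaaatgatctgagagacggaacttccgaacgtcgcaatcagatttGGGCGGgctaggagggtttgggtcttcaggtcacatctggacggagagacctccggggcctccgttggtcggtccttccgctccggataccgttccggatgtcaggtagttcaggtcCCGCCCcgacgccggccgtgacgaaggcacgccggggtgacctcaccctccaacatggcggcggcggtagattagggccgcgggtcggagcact

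In these windows BAX, BAK1 and BCL2L13 each had 2 GC boxes and BCL2L1 had 1. The motif was found in 45.0% of the 35116 promoters of the same length. The BCL2L1 and BCL2L13 windows were chosen for their GC boxes, so their counts cannot be compared with that share. The BCL2L1 window not shown, start 1, had 0 GC boxes. The BCL2L13 windows not shown had 1 at start 1 and 0 at start 3. BAK1 also had 1 heat shock element, in capitals near its upstream end, a motif held by 6.77% of promoters. The cyclic AMP response element TGACGTCA, in 1.85% of promoters, was in none of the 12 windows searched, which cover the members other than MCL1 and BCL2L2. The ATF4 and CHOP composite TGATGNAA, in 3.62%, was among them in the BCL2A1 window alone. The AP-1 motif TGANTCA, in 7.71%, was among them in the third BCL2L13 window alone. These matches describe letters, not binding. Gene positions on hg19, the build named for the expression files, are not given, and the promoter coordinates belong to GRCh38.p14 alone.

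MCL1 showed the largest difference of any member, that between the lines under the inhibitor. It had 85.1 and 84.3 TPM in RMS13-R with MAL3-101, 197 and 191 TPM in RMS13 with MAL3-101, and 121 and 123 TPM in RMS13 with DMSO. No 2 groups overlapped: the inhibitor-treated parental libraries were highest, the vehicle libraries came next, and the resistant libraries were lowest although they too had the inhibitor.

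**Figure D1:**
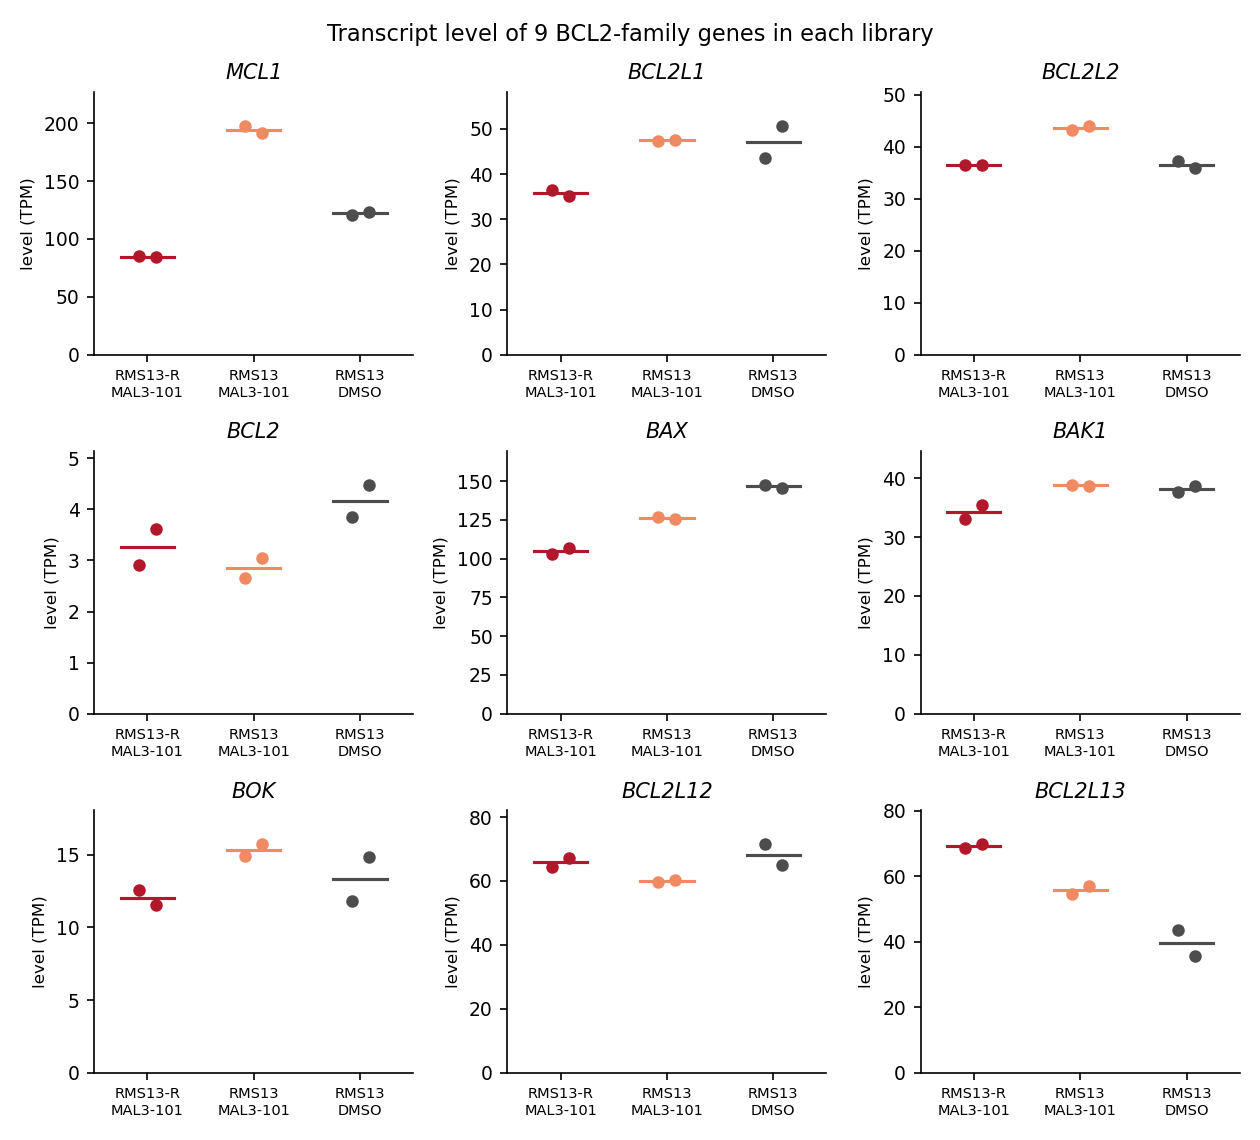
Each panel plots the level of 1 gene (vertical axis, TPM, from 0) in the 2 libraries of each group, with dots for libraries A and B and a line at their mean. MCL1 sits at 84.3 to 85.1 TPM in RMS13-R with MAL3-101, above 191 TPM in RMS13 with MAL3-101 and at 121 to 123 TPM with DMSO, while BCL2L13 is highest in RMS13-R and lowest with DMSO.

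In RMS13 cells, 9 h of MAL3-101 went with a higher MCL1 transcript level, and smaller rises of BCL2L2 and BCL2L13 stood beside a small fall of BAX. Calls come from limma on log2(TPM + 1) over the 15148 genes tested, with 0.05 as the threshold for the Benjamini-Hochberg adjusted p. Of the 9 tested members 3 rose, 1 fell and 5 did not pass, against 22.6% higher, 18.2% lower and 40.8% called in all among the 15148 genes. The members' median log2 fold change was 0.02, as was that of all tested genes.

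MCL1 averaged 194 ± 4.12 TPM with MAL3-101 and 122 ± 1.75 TPM with DMSO (SD, n = 2 each). Its mean level was 1.59 times as high with the inhibitor, a log2 fold change of 0.66 (SE 0.04, limma adjusted p = 1.0e-04). A change of that size or more was not common, since 88.2% of tested genes had a smaller absolute log2 fold change. ADAMTSL4-AS1 overlaps MCL1 on the same strand, and AL117381.1 and ABALON overlap BCL2L1 on the opposite strand. None of these overlapping genes is among the deposited names, so how reads of the overlaps were assigned is unknown.

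BCL2L2, which encodes the survival protein BCL-W, had 43.3 and 43.9 TPM in RMS13 with MAL3-101, against 37.2 and 35.9 TPM with DMSO. Both inhibitor libraries lay above both vehicle libraries, with a log2 fold change of 0.25 (SE 0.06, limma adjusted p = 0.012). The deposited names hold a separate read-through gene, BCL2L2-PABPN1, at 15.4 and 14.2 TPM with MAL3-101 against 12.8 and 13.4 TPM with DMSO, which did not pass (log2 fold change 0.17, limma adjusted p = 0.243). Reads in the shared exons may be divided between these names by estimation, and HOMEZ and PPP1R3E overlap BCL2L2 on the other strand, so its level carries that uncertainty.

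BCL2L1, the gene of BCL-XL, had 47.3 and 47.6 TPM in RMS13 with MAL3-101, against 43.6 and 50.6 TPM with DMSO. Its inhibitor libraries lay inside the range of the vehicle pair. The log2 fold change was 0.01 with a 95% interval of -0.17 to 0.20 (limma adjusted p = 0.900), and its sign turned under median-ratio scaling (-0.01) and upper-quartile scaling (-0.12) and without DMSO library A (-0.09).

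BCL2, the founding member of the family, was expressed at a low level, 2.65 and 3.05 TPM in RMS13 with MAL3-101 against 3.85 and 4.47 TPM with DMSO. The groups did not overlap, yet the log2 fold change of -0.42 (SE 0.15) did not pass the threshold (limma adjusted p = 0.058). It passed without DMSO library A (adjusted p = 0.038) and with upper-quartile scaling (0.027). BCL2A1, a survival gene best known from blood cells, was listed at 0 in 5 libraries and at 0.10 TPM in DMSO library B. It was not tested, and the blood markers above were likewise under 1 TPM.

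Among the effectors, BAX fell slightly in RMS13 cells with the inhibitor. BAX, whose protein waits in the cytosol and moves to mitochondria when activated, had 127 and 126 TPM with MAL3-101, against 147 and 146 TPM with DMSO. The pairs were tight and apart, with a log2 fold change of -0.22 (SE 0.05, limma adjusted p = 0.009). BAK1, whose protein resides in the outer membrane, had 38.8 and 38.7 TPM with MAL3-101, against 37.7 and 38.7 TPM with DMSO, so the groups overlapped. Its log2 fold change of 0.02 had a 95% interval of -0.13 to 0.17 (limma adjusted p = 0.818) and was negative under median-ratio (-0.0040) and upper-quartile scaling (-0.12).

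BOK, a relative of BAX and BAK found largely at the endoplasmic reticulum, had 14.9 and 15.7 TPM in RMS13 with MAL3-101, against 11.8 and 14.8 TPM with DMSO. Its log2 fold change of 0.20 (SE 0.12) did not pass (limma adjusted p = 0.226). The value turned on single DMSO libraries: it was 0.04 (adjusted p = 0.712) without library A and 0.35 (adjusted p = 0.023) without library B, and 0.06 (0.732) with upper-quartile scaling. The DMSO pair differed from each other by more than the inhibitor pair did.

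Of the divergent members, BCL2L13 rose and BCL2L12 did not pass. BCL2L13, also called BCL-RAMBO, is an outer-membrane protein that recruits the autophagy machinery to mitochondria. It had 54.6 and 57.1 TPM in RMS13 with MAL3-101, against 43.6 and 35.6 TPM with DMSO; the log2 fold change was 0.49 (SE 0.09, limma adjusted p = 0.005). BCL2L12, described in glioma as a protein that restrains caspases and p53, had 59.8 and 60.3 TPM with MAL3-101, against 71.5 and 65.0 TPM with DMSO (log2 fold change -0.18, limma adjusted p = 0.054). It passed in 5 of 16 settings, among them median-ratio (adjusted p = 0.020) and upper-quartile scaling (0.003); without DMSO library B it was -0.25 (0.007) and without DMSO library A -0.11 (0.087). IRF3 overlaps BCL2L12 on the opposite strand and stood at 40.5 and 35.7 TPM with MAL3-101 against 39.8 and 42.9 TPM with DMSO; whether counting used strand is not given in the sources used here, so reads of the overlap cannot be assigned.

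Leaving out either RMS13 MAL3-101 library ended some of the smaller calls, with 1 library left in that group. Calls among all tested genes fell widely too, so the loss was not particular to the members. Over the 16 alternative settings the log2 fold changes of the called members kept their sign. They ran from 0.11 to 0.27 for BCL2L2, from -0.35 to -0.21 for BAX and from 0.35 to 0.63 for BCL2L13. Median-ratio scaling, and leaving out mitochondrially encoded genes, each gave 3 members higher and 2 lower. With upper-quartile scaling, which shifts the median of all genes by -0.12, the split was 2 higher and 3 lower, BCL2L2 was lost (0.11, adjusted p = 0.150), and all genes split 2365 higher and 4316 lower in place of 3429 and 2752.

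**Figure D2:**
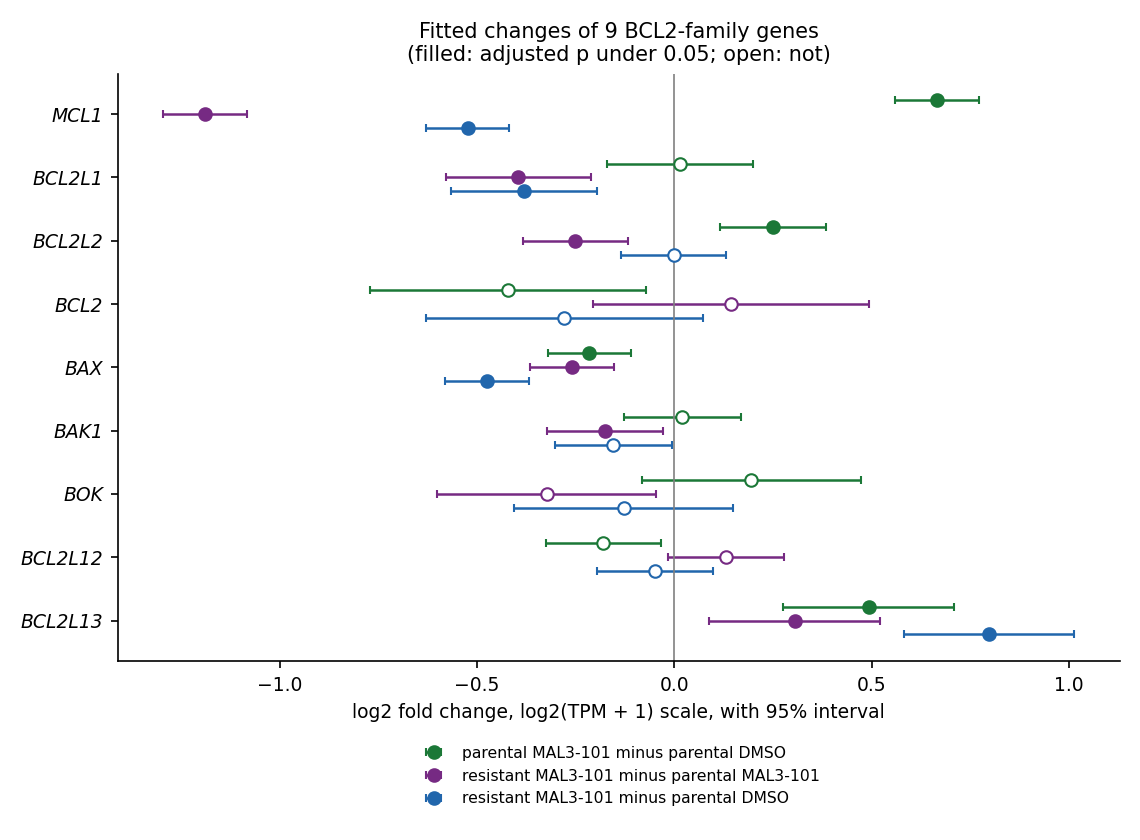
Fitted log2 fold changes (horizontal axis, log2(TPM + 1) scale) of the 9 tested members in the 3 comparisons, with 95% intervals from limma; filled dots passed an adjusted p under 0.05. MCL1 lies at 0.66 for RMS13 with MAL3-101 over DMSO, at -1.19 for RMS13-R over RMS13 with MAL3-101 in both, and at -0.52 for RMS13-R with MAL3-101 over DMSO, while the 3 dots of BCL2L13 all lie above 0.

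With MAL3-101 in both lines, RMS13-R cells had less MCL1, BCL2L1, BCL2L2, BAX and BAK1 transcript than RMS13 cells, and more BCL2L13. Of the 9 tested members 1 was higher, 5 were lower and 3 did not pass, against 21.3% higher, 34.8% lower and 56.1% called in all among tested genes. The members' median log2 fold change was -0.25, and that of all tested genes was -0.10. This comparison shares the RMS13 MAL3-101 libraries with the preceding one, so their values for a gene are not independent.

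MCL1 stood at 84.7 ± 0.537 TPM in RMS13-R and 194 ± 4.12 TPM in RMS13 (SD, n = 2 each). The ratio of these means was 0.436, with a log2 fold change of -1.19 (SE 0.04, limma adjusted p = 3.8e-06). MCL1 was the only member still called when the test was made against a fold of 1.5, and it was called in all 16 alternative settings, with log2 fold changes from -1.21 to -1.02. Among tested genes, 92.9% had a smaller absolute change.

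The other survival genes followed with smaller differences or did not pass. BCL2L1 had 36.6 and 35.1 TPM in RMS13-R, against 47.3 and 47.6 TPM in RMS13, a log2 fold change of -0.40 (SE 0.08, limma adjusted p = 0.004). BCL2L2 had 36.5 and 36.4 TPM in RMS13-R, against 43.3 and 43.9 TPM in RMS13, a log2 fold change of -0.25 (SE 0.06, limma adjusted p = 0.008). For both genes the resistant pair lay wholly below the parental pair. The read-through gene BCL2L2-PABPN1 had 14.6 and 17.4 TPM in RMS13-R, against 15.4 and 14.2 TPM in RMS13. It did not pass, with a log2 fold change of 0.10 (limma adjusted p = 0.434), and the sharing of reads with BCL2L2 was not tested. BCL2 had 2.91 and 3.61 TPM in RMS13-R, against 2.65 and 3.05 TPM in RMS13, with overlapping libraries and a 95% interval of the log2 fold change from -0.21 to 0.49 (limma adjusted p = 0.443).

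Both core effectors were lower in the resistant line. BAX had 103 and 107 TPM in RMS13-R, against 127 and 126 TPM in RMS13 (log2 fold change -0.26, SE 0.05, limma adjusted p = 0.002). BAK1 had 33.0 and 35.5 TPM in RMS13-R, against 38.8 and 38.7 TPM in RMS13 (log2 fold change -0.18, SE 0.06, limma adjusted p = 0.047). BOK had 12.6 and 11.5 TPM in RMS13-R, against 14.9 and 15.7 TPM in RMS13; its libraries did not overlap either, but its log2 fold change of -0.32 (SE 0.12) lay just outside the threshold (limma adjusted p = 0.0503); it passed when only the 4 libraries compared were fitted (adjusted p = 0.006).

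BCL2L13 went the other way, with 68.7 and 69.8 TPM in RMS13-R, against 54.6 and 57.1 TPM in RMS13 (log2 fold change 0.30, SE 0.09, limma adjusted p = 0.025). BCL2L12 had 64.5 and 67.2 TPM in RMS13-R, against 59.8 and 60.3 TPM in RMS13. Its pairs were apart and its log2 fold change of 0.13 (SE 0.06) did not pass (limma adjusted p = 0.110). IRF3, on the opposite strand, had 29.9 and 27.3 TPM in RMS13-R, against 40.5 and 35.7 TPM in RMS13.

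Several of these calls depended on how libraries were scaled. Median-ratio scaling gave 2 members higher and 3 lower and left BCL2L2 (-0.14, adjusted p = 0.056) and BAK1 (-0.07, 0.392) uncalled, with all genes at 4241 higher and 4356 lower in place of 3228 and 5267. Upper-quartile scaling, which shifts the median of all genes by 0.15, gave 2 higher and 1 lower, with all genes at 4766 and 3808. Under it BCL2L1 (-0.23, adjusted p = 0.088), BCL2L2 (-0.08, 0.250), BAX (-0.09, 0.170) and BAK1 (-0.0069, 0.940) were not called. MCL1 kept its call under each of these scalings. Leaving out any 1 of the 4 libraries compared ended the calls of BAK1 (adjusted p between 0.079 and 0.278) and BCL2L13 (between 0.080 and 0.132), and leaving out RMS13 library B, RMS13-R library A or RMS13-R library B ended that of BCL2L2 (between 0.059 and 0.060).

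Against the vehicle libraries, RMS13-R cells with MAL3-101 had lower MCL1, BAX and BCL2L1 and higher BCL2L13. Of the 9 tested members 1 was higher, 3 were lower and 5 did not pass, against 20.9% higher, 29.7% lower and 50.6% called in all among tested genes. Median-ratio scaling left the members' split as it was and gave 4071 genes higher and 3763 lower in place of 3160 and 4502. The members' median was -0.15, and that of all tested genes was -0.06. The vehicle libraries serve in this comparison and in the first, so the values for a gene stand side by side and are not independent.

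MCL1 averaged 84.7 ± 0.537 TPM in RMS13-R with MAL3-101 and 122 ± 1.75 TPM in RMS13 with DMSO (SD, n = 2 each), a log2 fold change of -0.52 (SE 0.04, limma adjusted p = 1.1e-04). BAX averaged 105 ± 2.69 TPM in RMS13-R and 147 ± 1.04 TPM with DMSO, with a fitted log2 change of -0.48 (SE 0.05, limma adjusted p = 1.8e-04). BAX was thus lower than with DMSO in both inhibitor groups, and its 3 pairs of libraries did not overlap. BCL2L1 averaged 35.8 ± 1.03 TPM in RMS13-R and 47.1 ± 4.92 TPM with DMSO, with a fitted log2 change of -0.38 (SE 0.08, limma adjusted p = 0.006). That call was lost without RMS13-R library B (-0.35, adjusted p = 0.052).

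BCL2L13 averaged 69.2 ± 0.764 TPM in RMS13-R with MAL3-101 and 39.6 ± 5.61 TPM in RMS13 with DMSO, 1.75 times the vehicle level. Its log2 fold change was 0.80 (SE 0.09, limma adjusted p = 4.1e-04), and 85.6% of tested genes had a smaller absolute change. BCL2L13 was the highest in the resistant libraries, intermediate in inhibitor-treated RMS13 and lowest with DMSO. Its neighbour BID, a BH3-only gene on the opposite strand, ran in another order, with 27.3 and 26.4 TPM in RMS13-R, 20.2 and 20.4 TPM in RMS13 with MAL3-101, and 34.1 and 32.9 TPM with DMSO.

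The remaining members did not pass in this comparison. BCL2L2, at 36.5 and 36.4 TPM in RMS13-R against 37.2 and 35.9 TPM with DMSO, had a log2 fold change of -0.0017 with a 95% interval of -0.14 to 0.13, and its sign turned under all 3 scalings tried (0.081, 0.030 and 0.0090). The read-through gene BCL2L2-PABPN1 had 14.6 and 17.4 TPM in RMS13-R against 12.8 and 13.4 TPM with DMSO. Its pairs were apart, and its log2 fold change of 0.27 did not pass (limma adjusted p = 0.067). BCL2L12 had a log2 fold change of -0.05 (interval -0.19 to 0.10), positive under median-ratio scaling (0.035). BAK1 stood at -0.15 (limma adjusted p = 0.076), BOK at -0.13 (0.395) and BCL2 at -0.28 (0.157). BAK1 and BOK joined the lower members without DMSO library A, a fit with 1 vehicle library in which more of all tested genes were called as well. Over the 16 alternative settings BAK1 ran from -0.21 to -0.07 and BOK from -0.28 to 0.02.

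The order of levels among members also differed between groups; TPM scales for transcript length, so levels of different genes can be set side by side. In RMS13 with MAL3-101, MCL1 led with 194 TPM and BAX followed with 126 TPM. In RMS13-R with MAL3-101, BAX led with 105 TPM ahead of MCL1 with 84.7 TPM, and in RMS13 with DMSO BAX led with 147 TPM ahead of MCL1 with 122 TPM. BCL2L12 and BCL2L13 came next in both inhibitor groups, with BCL2L13 ahead in RMS13-R and BCL2L12 ahead in RMS13. In RMS13-R, BCL2L2, BCL2L1 and BAK1 (36.5, 35.8 and 34.2 TPM) overlapped with their neighbours in the order, and with DMSO BCL2L13 and BAK1 (39.6 and 38.2 TPM) did. BOK, BCL2 and BCL2A1 closed the order in each group.

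Ratios taken within a library do not depend on how libraries are scaled against each other. The 5 survival genes summed to 161 and 159 TPM in RMS13-R with MAL3-101, to 290 and 286 TPM in RMS13 with MAL3-101, and to 206 and 214 TPM with DMSO. The 3 effectors summed to 149 and 154 TPM in RMS13-R with MAL3-101, to 180.3 and 180.1 TPM in RMS13 with MAL3-101, and to 197 and 199 TPM with DMSO. Survival transcripts per effector transcript came to 1.08 and 1.04 in RMS13-R, 1.61 and 1.59 in RMS13 with MAL3-101, and 1.04 and 1.08 with DMSO. The resistant and vehicle libraries overlapped in this ratio, and both inhibitor-treated parental libraries lay above them. No test was made on these sums.

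MCL1 made up 52.8% and 52.9% of survival transcripts in RMS13-R, 67.9% and 66.9% in RMS13 with MAL3-101, and 58.8% and 57.6% with DMSO. MCL1 per BCL2L1 was 2.33 and 2.40 in RMS13-R, 4.17 and 4.02 in RMS13 with MAL3-101, and 2.77 and 2.44 with DMSO. The inhibitor-treated parental libraries stood apart in that ratio too, and the resistant pair lay just under the vehicle pair. BAX per BAK1 was 3.13 and 3.02 in RMS13-R, 3.26 and 3.25 in RMS13 with MAL3-101, and 3.91 and 3.77 with DMSO, so that this ratio was lower in both inhibitor groups than with DMSO.

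**Figure D3:**
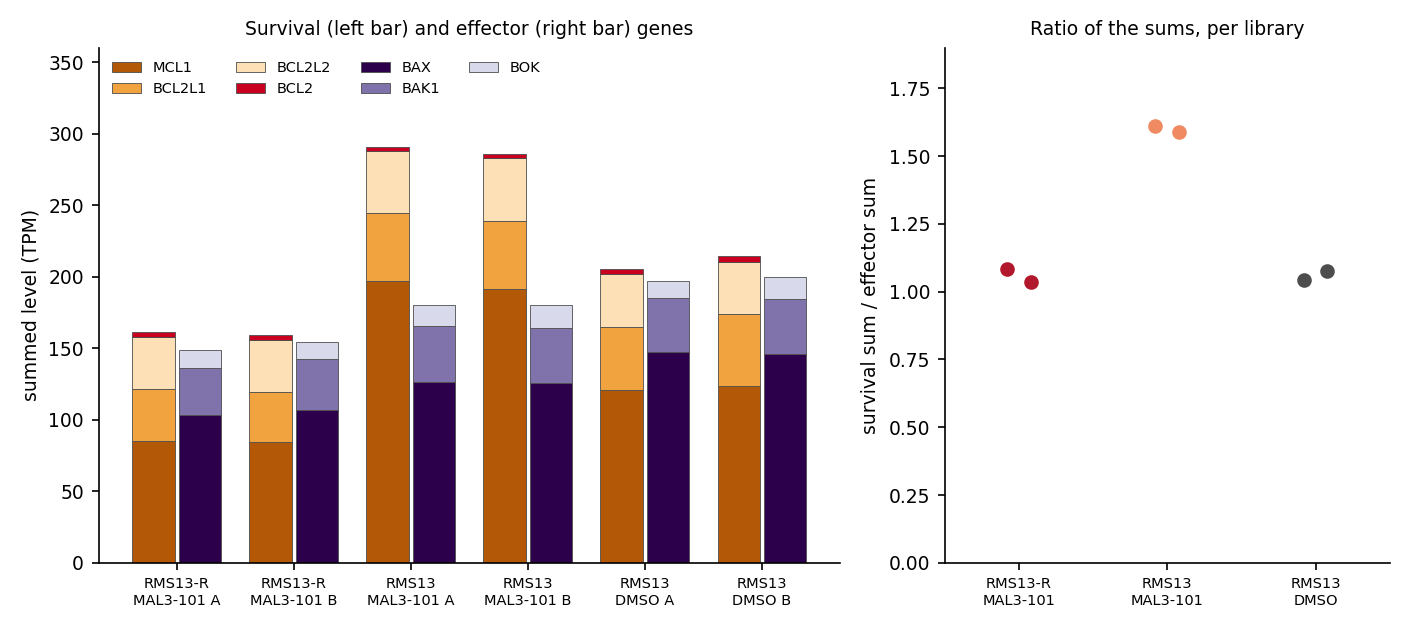
Left, summed level (TPM, from 0) of the survival genes and of the effectors in each library, stacked by gene; BCL2A1, at 0 to 0.10 TPM, is not drawn. Right, the ratio of the sums, which is 1.59 to 1.61 in RMS13 with MAL3-101 and 1.04 to 1.08 in both RMS13-R with MAL3-101 and RMS13 with DMSO.

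Other genes of the death pathway were read from lists that name the partners of these proteins. Of 8 BH3-only genes 6 were tested, since BIK and HRK stayed below the filter. In RMS13 with MAL3-101 against DMSO 3 rose, 1 fell and 2 did not pass; in RMS13-R against RMS13 with MAL3-101 in both 3 were higher, 2 lower and 1 did not pass; in RMS13-R with MAL3-101 against DMSO 4 were higher and 2 lower. Among all tested genes 22.6% were higher and 18.2% lower in the first of these comparisons, 21.3% and 34.8% in the second, and 20.9% and 29.7% in the third, and the counts of each list below stand against these shares. PMAIP1, whose product NOXA binds MCL1 above all, had 6.20 and 6.90 TPM in RMS13-R, 31.7 and 31.3 TPM in RMS13 with MAL3-101, and 10.6 and 9.64 TPM with DMSO. MCL1 per PMAIP1 was therefore 13.7 and 12.2 in RMS13-R, 6.22 and 6.12 in RMS13 with MAL3-101, and 11.4 and 12.8 with DMSO. In the group where MCL1 was highest, this ratio was the lowest.

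BBC3, whose product PUMA binds every survival protein, had 4.30 and 3.58 TPM in RMS13-R, 9.24 and 10.4 TPM in RMS13 with MAL3-101, and 2.42 and 1.70 TPM with DMSO. Its log2 fold change was 1.83 (SE 0.16, limma adjusted p = 3.0e-04) for RMS13 with MAL3-101 over DMSO and -1.13 (SE 0.16, limma adjusted p = 8.8e-04) for RMS13-R over RMS13 with MAL3-101. BCL2L10, a further gene with the BCL2 fold, was low, with 1.65 and 1.66 TPM in RMS13-R, 2.81 and 3.01 TPM in RMS13 with MAL3-101, and 0.32 and 0.12 TPM with DMSO. It was the 1 tested gene of 3 such relatives.

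Downstream of the pore, 8 genes of the apoptosome and its caspases were tested. In RMS13 with MAL3-101 against DMSO 3 rose, 1 fell and 4 did not pass, with a median log2 fold change of 0.00051 against 0.02 for all tested genes. In RMS13-R against RMS13 with MAL3-101 in both, 1 was higher, 6 were lower and 1 did not pass, with a median of -0.49 against -0.10 for all tested genes, of which 34.8% were lower and 56.1% called. In RMS13-R with MAL3-101 against DMSO, 1 was higher, 5 were lower and 2 did not pass, with a median of -0.32 against -0.06 for all tested genes, of which 29.7% were lower and 50.6% called.

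CASP9, the initiator caspase of the apoptosome, had 17.2 and 16.5 TPM in RMS13-R, 35.8 and 34.5 TPM in RMS13 with MAL3-101, and 21.9 and 19.0 TPM with DMSO; the log2 fold change was -1.02 (SE 0.09, limma adjusted p = 8.4e-05) for RMS13-R over RMS13 with MAL3-101. Its order of groups was that of MCL1. For RMS13-R with MAL3-101 over DMSO it was -0.26 (limma adjusted p = 0.037), a call lost in 9 of 16 settings, with adjusted p between 0.073 and 0.181 when any 1 library other than DMSO library B was left out.

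Of 8 ubiquitin ligases and deubiquitinases known to act on MCL1 protein, 7 were tested. In RMS13 with MAL3-101 against DMSO 4 rose, 0 fell and 3 did not pass by limma (0 fell also at an unadjusted p under 0.05). Among all tested genes 22.6% were higher and 18.2% lower there. The genes that rose included ligases and a deubiquitinase, kinds that act in opposite ways, so the count gives no direction for MCL1 protein. In RMS13-R against RMS13 with MAL3-101 in both 1 was higher, 2 were lower and 4 did not pass, and in RMS13-R with MAL3-101 against DMSO 3 were higher, 2 lower and 2 did not pass. None reached a 2-fold change; MARCH5, a ligase of the outer membrane, came nearest, at 27.5 and 29.1 TPM in RMS13-R, 56.2 and 53.6 TPM in RMS13 with MAL3-101, and 36.8 and 34.2 TPM with DMSO. It is named after its values were seen.

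BCL2L13 shares its role in mitophagy with a list of 5 outer- and inner-membrane receptors, all tested. In RMS13 with MAL3-101 against DMSO none of the 5 passed by limma, and none had an unadjusted p under 0.05. In RMS13-R 3 were higher, 0 lower and 2 did not pass, both against RMS13 with MAL3-101 and against DMSO (0 lower also at an unadjusted p under 0.05). Of all tested genes 21.3% were higher and 34.8% lower in the first of these and 20.9% and 29.7% in the second. The receptors' medians were 0.25 and 0.36, against -0.10 and -0.06 for all tested genes. FKBP8, an outer-membrane receptor that also binds BCL2, was named after its values were seen, with 161.0 and 161.2 TPM in RMS13-R, 101 and 100.3 TPM in RMS13 with MAL3-101, and 102 and 95.8 TPM with DMSO.

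Of 8 membrane partners of the family, the VDAC channels, MTCH2, TMBIM6 and the IP3 receptors, 2 rose and 3 fell in RMS13 with MAL3-101 against DMSO, 2 were higher and 3 lower in RMS13-R against RMS13 with MAL3-101 in both, and 2 were higher and 4 lower in RMS13-R with MAL3-101 against DMSO. Among 13 transcription factors reported at promoters of the members, these counts were 4 and 1, 1 and 7, and 3 and 6. The medians in these comparisons were -0.09, -0.13 and -0.19 for the partners and 0.07, -0.18 and -0.16 for the factors, against 0.02, -0.10 and -0.06 for all tested genes, of which 40.8%, 56.1% and 50.6% were called. ATF4, the factor of the integrated stress response, which is reported to act on MCL1, had 492 and 515 TPM in RMS13-R, 656 and 653 TPM in RMS13 with MAL3-101, and 249.5 and 248.6 TPM with DMSO. Its resistant libraries lay above the vehicle libraries, and those of MCL1 lay below them. Whether ATF4 had a part in the MCL1 levels was not tested.

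**Figure D4:**
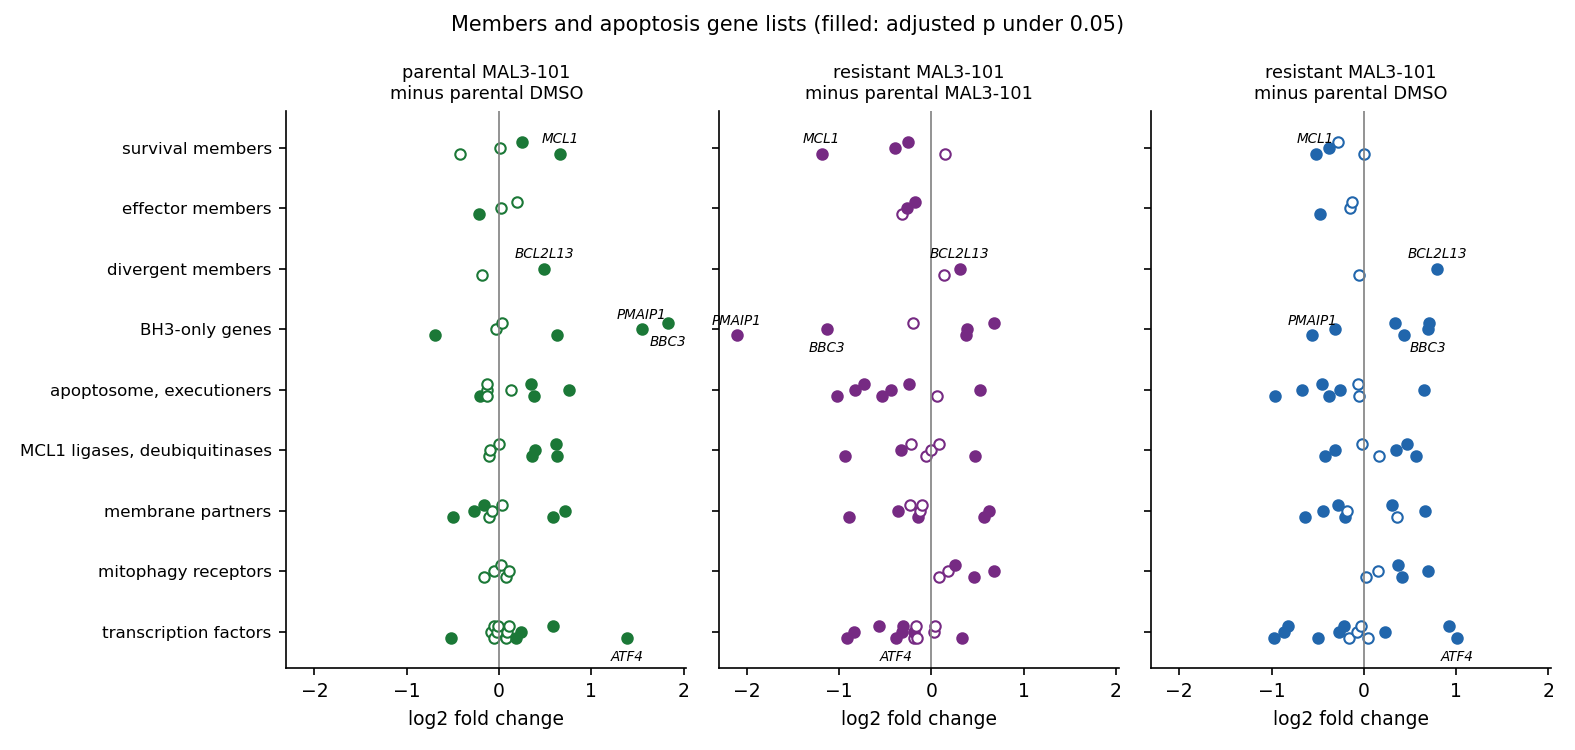
Log2 fold changes (horizontal axis, log2(TPM + 1) scale) of the tested members and of tested genes in 6 lists of partners, by list down the page, in 1 panel per comparison; filled dots passed an adjusted p under 0.05, and small vertical offsets only separate the dots. PMAIP1 and BBC3 lie at 1.55 and 1.83 for RMS13 with MAL3-101 over DMSO, and PMAIP1 at -2.11 for RMS13-R over RMS13 with MAL3-101.

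Some genes ran closely alongside MCL1 across the 6 libraries. By the root mean square distance between centred log2(TPM + 1) values, over 10914 other genes averaging at least 5 TPM, the nearest were FAM13B (distance 0.039), ZNF354A (0.043), TRIT1 (0.046), CEP95 (0.049) and GTF2B (0.058). FAM13B averaged 20.3 TPM in RMS13-R, 47.0 TPM in RMS13 with MAL3-101 and 28.7 TPM with DMSO. The nearest to BCL2L1 was CTC-338M12.3 (0.019), to BAX was PGD (0.011), and to BAK1 was PIP4K2C (0.025). PGD averaged 218 TPM in RMS13-R, 264 TPM in RMS13 with MAL3-101 and 308 TPM with DMSO, the same order of groups as BAX. With 6 libraries in 3 groups, such likeness describes 3 levels.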

How the data were processed

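The authors deposited a TPM table for each library, keyed by gene name. RSEM, DESeq and hg19 are named in the submitters' processing notes, without versions; the sources used here give no aligner, annotation or strand setting. TPM keeps no depth, so no count model, counting interval or floor was used. Groups came from the labels' descriptions, since the DMSO titles carry the drug's name too. Group means were estimated from all 6 libraries with limma 3.58.1 (R 4.3.3) on log2(TPM + 1), with a mean-variance trend (3 residual and 4.17 prior degrees of freedom). A gene entered if some group averaged at least 1 TPM. Fold changes on that scale understate changes of low genes. P-values were adjusted over all 15148 genes in each of 3 comparisons. 1 gene of the lists is not reported here and is left out of their counts. The code was tested on simulated data. The members and lists were chosen with earlier results of these data known. Named are all members, list genes called in 2 or more comparisons with a log2 fold change of 1 or more (at most 4 a list), genes nearest in pattern to a member, genes that overlap or neighbour a member (IRF3, BCL2L2-PABPN1, BID and others), cell type markers, and those said to be named after their values were seen. Overlapping genes came from GENCODE release 29, promoters from RefSeq on GRCh38.p14. Python 3.11.15 and matplotlib 3.10.9 drew the figures. The 16 alternatives changed pseudocount, filter, libraries, block, scaling or threshold.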

Additional observations from a re-analysis of the deposited data

How the results depend on the processing

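MCL1 was called in each comparison under all alternatives but the test against a fold of 1.5, and there against RMS13 with MAL3-101 too; BAX and BCL2L13 in RMS13-R with MAL3-101 against DMSO were lost only there. That test left 0, 1 and 0 members (0, 0 and 0 higher, 0, 1 and 0 lower) in the 3 comparisons as ordered in the text, with 0, 1 and 1 at an unadjusted p under 0.05. In the first comparison, lower members numbered 2 with a filter at 5 TPM, with median-ratio scaling and without mitochondrially encoded genes, and 3 with upper-quartile scaling. In the second, higher members numbered 0 without a filter and 2 with only the libraries compared, with median-ratio scaling (3 lower) and with upper-quartile scaling (3 called, 1 lower). Leaving out 1 library in turn gave 1 to 6 called (1 to 4 higher, 0 to 2 lower) in the first, 3 to 8 (0 to 2 higher, 3 to 6 lower) in the second and 3 to 6 (1 to 1 higher, 2 to 5 lower) in the third. With the replicate block, 5, 5 and 4 members were called, 2 of them lower in the first. There BCL2 passed (-0.42, limma adjusted p = 0.048), and BAK1 was lost in the second (-0.18, 0.055). Deviations of same-letter libraries correlated at 0.03, -0.02 and -0.02, so no deviation shared by letter was seen. Whether libraries of the same letter were handled together is not stated in the labels. Signs turned only for values that are not called in the report. In the first comparison BCL2L1 was -0.010 with median-ratio and -0.12 with upper-quartile scaling, and -0.090 to 0.12 with 1 library left out, and BAK1 was -0.0040 and -0.12 under these scalings. In the third, BCL2L2 was 0.081 and 0.030 under them, 0.0090 without mitochondrially encoded genes and -0.027 to 0.023 with 1 library left out; BCL2L12 was 0.035 with median-ratio scaling and -0.12 to 0.019 with 1 library left out, and BOK was -0.28 to 0.023. Of all genes, 6181, 8495 and 7662 were called in the 3 comparisons, against 346 (299 higher, 47 lower), 1604 (435 and 1169) and 1244 (492 and 752) at a fold of 1.5. The first count was 3158 (1799 and 1359) without RMS13 MAL3-101 library A and 3353 (1924 and 1429) without B, and its 2752 lower genes were 4316 with upper-quartile scaling. The 3228 higher genes of the second were 2126 without RMS13-R library B. The third was 4955 (2009 and 2946) without RMS13-R library A and 5004 (1926 higher) without B, and median-ratio scaling split it 4071 higher and 3763 lower in place of 3160 and 4502. Causes were not tested. With 2 libraries a group and unknown depth, small differences and low genes such as BCL2 are the least certain.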
